A study of Mus musculus with 14 samples.

Results

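The genes examined here are 37 mouse genes that repair DNA or signal its damage, listed by name and sorted into 7 pathways. The array table named a probe set for 35 of them, all 35 passed the signal filter, and no level is given for Xrcc2 and Rbbp8. They are 35 of the 17136 genes tested. They were listed by name, with earlier results of these arrays known. Signals came from 14 MOE430 2.0 arrays, each hybridized with RNA amplified through 2 cycles, and the unit is the linear PLIER signal, a summary of the brightness of the probes of 1 probe set. The probe set of highest mean log2 signal stood for a gene.

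The arrays held 4 cell populations of normal mice. UGE was the urogenital sinus epithelium of C57BL/6 embryos on day 16 of gestation (3 arrays), the fetal tissue from which the prostate buds. The other populations came from the prostates of males aged 6 to 8 weeks, of a strain given as C57BL in the labels and C57BL/6 in the methods, from the ends of the ducts nearest the urethra, and were sorted by Sca-1, a Ly6 surface protein. Sca-1Hi cells stained most strongly (3 arrays) and are enriched in adult stem cells, Sca-1Lo cells stained at a medium to low level (4 arrays) and hold many transit-amplifying cells, and Sca-1Neg cells did not stain (4 arrays) and are the most mature. The adult gates were set on Sca-1 alone and UGE was dissected, so each population could hold more than 1 cell type, and embryonic stage and tissue source differed together between UGE and the adult groups. The labels do not say whether arrays of a group came from separate animals, so the p-values measure the spread between arrays.

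Cells repair DNA by several routes. Homologous recombination copies an intact sister chromatid to mend a broken one, and it works mainly in cells that are replicating or have replicated their DNA. The Fanconi anaemia proteins unhook crosslinks between strands, mismatch repair corrects copying errors, base excision repair removes damaged bases, and non-homologous end joining glues broken ends together at any point of the cell cycle. The kinases Atm and Atr sense breaks and stalled forks and pass the signal to the checkpoint kinases Chek2 and Chek1, which hold the cell cycle. Many genes of recombination and of the checkpoint are transcribed together with the genes of S phase.

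Of the 35 genes, 22 were higher and none lower in UGE than in Sca-1Neg cells. Over all genes tested, 16.3% were called higher and 12.9% lower by the same rule, a difference larger than 0.81 on the log2 scale at an adjusted p below 0.05 in limma. At an unadjusted p below 0.05 the count was also 22, where 42.0% of all genes passed in either direction. An unmoderated 2-group test, in which each probe set has its own spread, called 15 of the 22 genes and 8.47% of all genes higher, and left out Rad54l, Atr, Rad50, Trp53bp1, Neil3, Xrcc5 and Lig4. The median log2 difference was 1.24 for the 35 genes and 0.07 for all genes. The rises were uneven across pathways. Homologous recombination had 8 of 10 genes higher with a median of 2.66, base excision and single-strand break repair 3 of 3, damage sensing and checkpoint 5 of 8, non-homologous end joining 2 of 4, mismatch repair 1 of 2 and the Fanconi anaemia pathway 3 of 7 with a median of 0.61. Polq, the only gene of theta-mediated end joining, was not called. The counts and medians include Rad54b, which passed the signal filter through its UGE arrays alone.

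**Figure D1:**
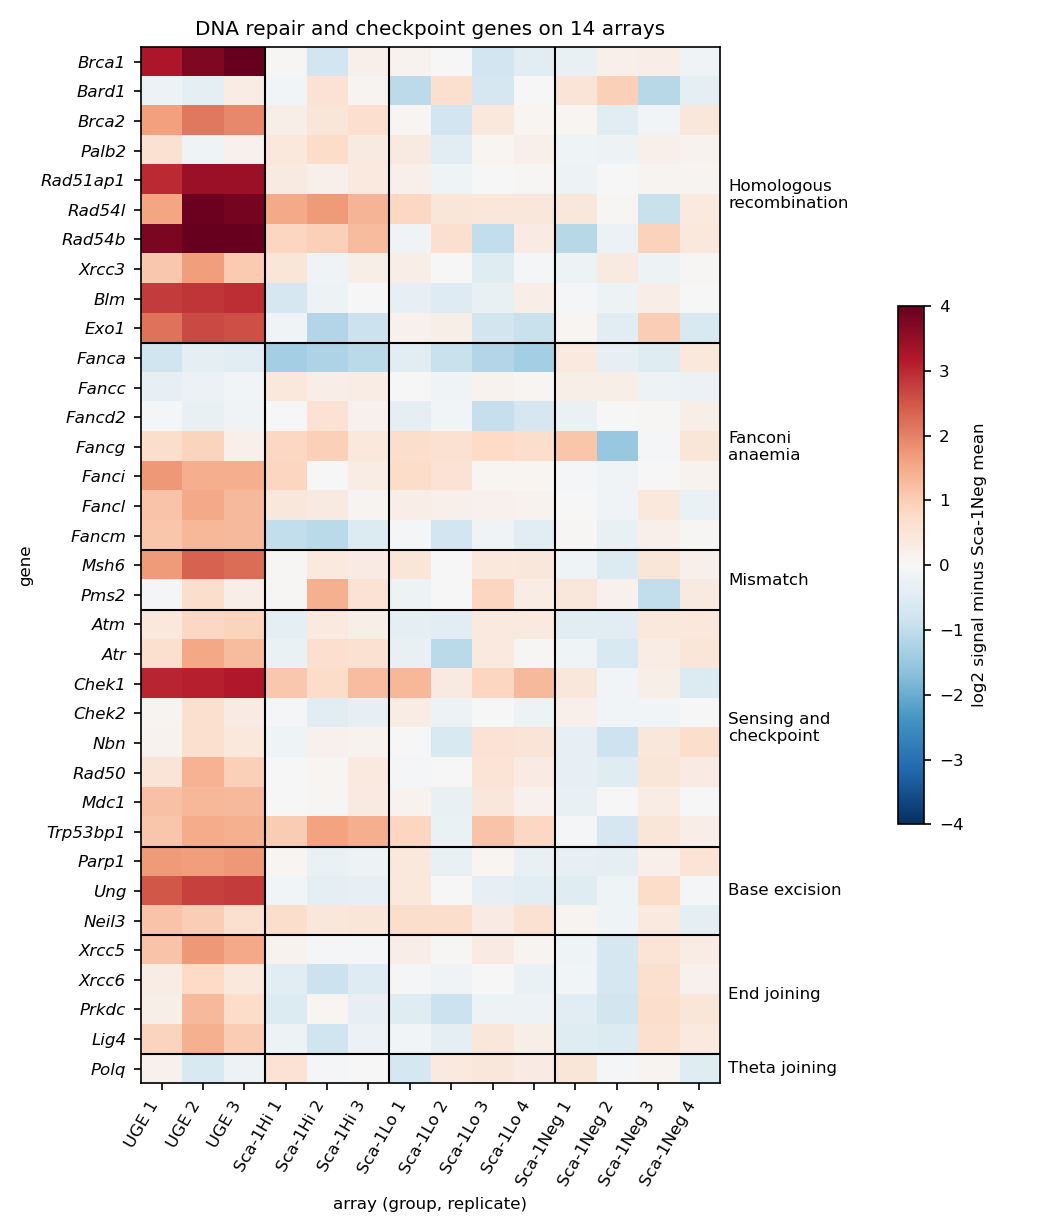
Log2 signal of each gene (rows, grouped by pathway) on each of the 14 arrays (columns), minus the mean of the gene's 4 Sca-1Neg arrays. Red is above and blue below that mean, and the scale ends at 4 in either direction. The 3 UGE columns are red through most of the recombination, checkpoint and base excision rows, whereas the adult columns show small differences.

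The promoters of these genes were read for the site that E2F factors, the regulators of S phase transcription, are known to bind. The windows of 300 bases (250 before and 50 after a transcription start) came from RefSeq (GRCm38.p6), which held 31 windows for 29 of the 37 genes. The letters TTTCCCGC, TTTCGCGC, TTTGCCGC and TTTGGCGC were searched on both strands. At least 1 of them stood in the windows of 7 of the 29 genes (24.1%) and in 2.26% of all 32851 windows, which include those of many genes of other kinds. The 7 matches are shown because they all had the same word, TTTCCCGC or its reverse complement. Each stretch of 30 bases reads 5′ to 3′ in the direction of transcription, and the capitals mark the match.

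Bard1: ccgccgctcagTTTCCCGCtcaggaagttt
Brca2: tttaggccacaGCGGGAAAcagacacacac
Chek2: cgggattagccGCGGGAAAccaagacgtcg
Fancg: tttcttttcagTTTCCCGCggaaccgtctc
Mdc1: tcttcagcctgTTTCCCGCcggtagccgca
Msh6: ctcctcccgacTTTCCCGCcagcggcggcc
Xrcc6: agggggtggaaGCGGGAAAtgcgagtgggc

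The stretches lie at chr1:71103163-71103192 (minus strand) for Bard1, chr5:150522442-150522471 (plus) for Brca2, chr5:110839820-110839849 (plus) for Chek2, chr4:43010335-43010364 (minus) for Fancg, chr17:35841471-35841500 (plus) for Mdc1, chr17:87975054-87975083 (plus) for Msh6 and chr15:82016312-82016341 (plus) for Xrcc6. Counted from the start site, the matches began at position -16 in Mdc1, -46 in Xrcc6, -52 in Fancg, -152 in Chek2, -168 in Brca2, -209 in Bard1 and 16 in Msh6. The genes that held these letters were not the ones that stood highest in UGE. A match was present for 3 of the 19 genes that were higher in UGE than in Sca-1Neg cells (15.8%) and for 4 of the 10 that were not called (40%). The windows of Brca1, Rad51ap1, Blm, Chek1 and Ung, which all rose more than 6-fold, did not hold the letters, which says only that they are not within these windows. CCAAT stood on either strand in 16 of the 29 genes (55.2%) and in 37.4% of all windows, and TTTGAA in 2 genes (Bard1 and Polq) and 17.9% of all windows.

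Homologous recombination held the largest differences. Brca1, which loads the recombination machinery at breaks (chr11:101488761-101551955), had signals of 634, 889.5 and 1127 on the UGE arrays. It ranged from 39.6 to 77.4 on the Sca-1Hi, from 39.6 to 73.8 on the Sca-1Lo and from 54.2 to 80.3 on the Sca-1Neg arrays. By this probe set, the brightest of Brca1, no adult array came near the UGE arrays, and the adult groups overlapped. The fold changes were 12.8 against Sca-1Neg (log2 3.68 ± 0.32 SE, adjusted p = 3.02e-06), 14.4 against Sca-1Hi and 15.4 against Sca-1Lo cells. A dimmer probe set of Brca1 read 30.9 to 46.8 in UGE, below Sca-1Hi at 55.1 to 66.5 and overlapping Sca-1Neg cells at 21.0 to 43.5. The other probe sets, at 23.5 to 43.4 and 18.8 to 25.2 in UGE, had no UGE array within the adult range.

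Rad51ap1, which promotes the invasion of the template strand, behaved alike, with 544, 734 and 738 in UGE and from 60.7 to 90.9 on the adult arrays. Its difference from Sca-1Neg was 3.27 ± 0.21 SE in log2 (adjusted p = 2.88e-07). Blm, the helicase that dissolves recombination intermediates, had 323, 338 and 355 in UGE and from 29.1 to 56.0 in the adult groups, a difference from Sca-1Neg of 2.87 ± 0.25 (adjusted p = 3.18e-06). Neither gene had an adult array within the UGE range. Exo1, which resects the ends of a break, read 241, 331 and 317 in UGE. Its adult signals were more spread, from 23.6 to 106, and its difference from Sca-1Neg was 2.46 ± 0.42 (adjusted p = 7.55e-04).

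The translocases Rad54b and Rad54l, which move along DNA during recombination, differed from each other in the adult cells. Rad54b read 92.7, 147 and 124 in UGE, whereas all 11 adult signals lay between 3.17 and 16.7, under the floor of 20 below which signals were not ranked. UGE was therefore at least 5.97-fold higher than each adult group. Rad54b passed the signal filter through its UGE arrays alone, so its call is no independent support for a rise in UGE. The counts and medians of the genes include it, with its fitted difference and not the bound. Rad54l was spread in UGE, at 104, 535 and 505. Its signals were 100.7, 114 and 90.0 in Sca-1Hi, 62.2, 49.5, 47.7 and 47.8 in Sca-1Lo, and 48.6, 36.3, 19.1 and 45.7 in Sca-1Neg cells. By the brightest probe set of Rad54l the first UGE array lay among the Sca-1Hi arrays, and the Sca-1Hi arrays lay above all other adult arrays. Rad54l was 8.64-fold higher in UGE than in Sca-1Neg (adjusted p = 4.32e-04) and 3.01-fold higher than in Sca-1Hi (adjusted p = 0.038), and the second call was lost without UGE replicate 2, UGE replicate 3 or any 1 of the Sca-1Hi arrays. The difference of Sca-1Hi from Sca-1Neg, 1.52 ± 0.49 in log2, had an adjusted p of 0.0586. A dimmer probe set of Rad54l read 235.5 to 344 in UGE and 62.4 to 110 in Sca-1Hi, whose arrays again lay above all other adult arrays. Another read 208 to 343 in UGE and 38.5 to 58.8 in Sca-1Hi, which overlapped Sca-1Lo (21.9 to 53.7) and Sca-1Neg cells (23.6 to 50.7). Neither had a UGE array among the Sca-1Hi arrays. The last lay near the floor, at 9.98 to 24.5 in UGE and 21.4 to 31.8 in Sca-1Hi cells.

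Brca2, which acts with Brca1 in recombination, read 392, 548 and 472 in UGE and from 73.6 to 199.7 in the adult groups (1.89 ± 0.30 against Sca-1Neg, adjusted p = 4.87e-04). Xrcc3, which acts in the same route, was 2.41-fold higher than in Sca-1Neg cells (adjusted p = 0.00337). Brca1 works bound to Bard1 and is tied to Brca2 by Palb2, and neither partner was called. Palb2 lay between 54.7 and 92.4 in UGE and between 45.7 and 101.8 in the adult groups, a difference of 0.21 ± 0.26 (adjusted p = 0.593). The probe set of Bard1 was above 20 on 3 of the 14 arrays, so no fold is given for it.

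**Figure D2:**
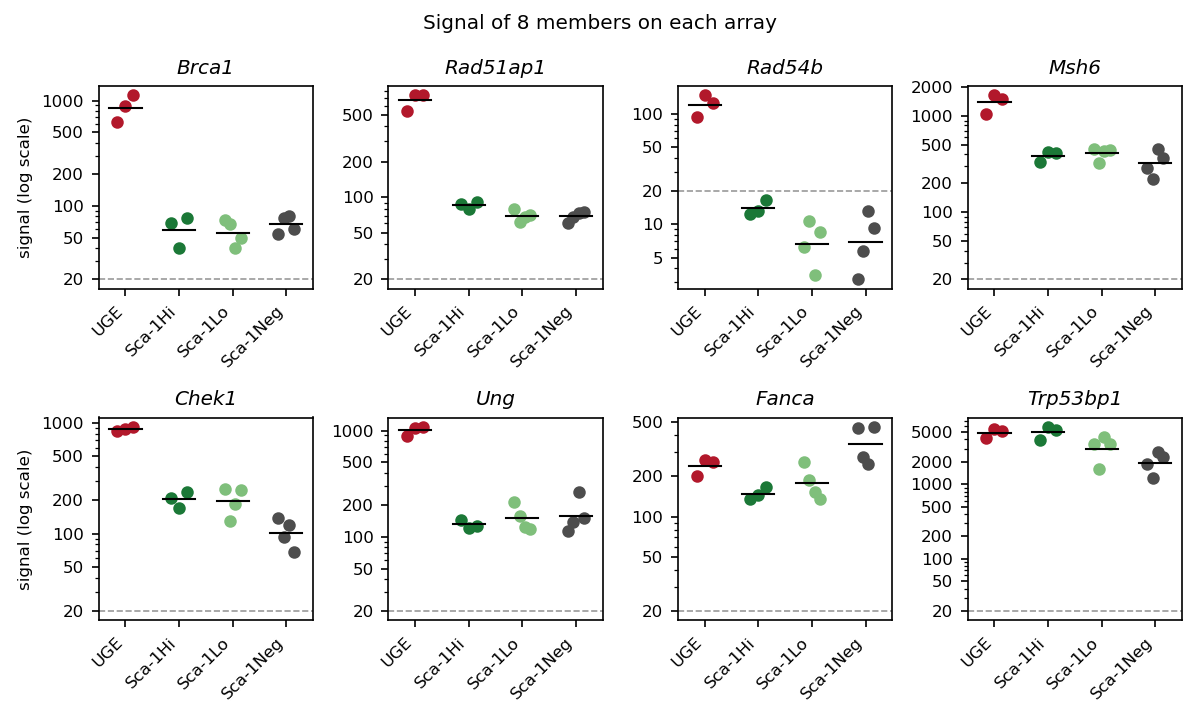
Signal (log axis) of the probe set that stood for each of 8 genes, on each array, by population. Bars are means of log2 signals, and the dashed line marks the floor of 20. In the first 6 panels the UGE arrays stand above every adult array, Rad54b is under the floor in all adult arrays, Fanca is lowest in Sca-1Hi and Trp53bp1 is as high in Sca-1Hi as in UGE.

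The Fanconi anaemia pathway divided. Fanci, a partner in the clamp that closes on a crosslink, read 106, 87.1 and 87.6 in UGE and from 29.1 to 57.6 in adult cells (1.55 ± 0.26 against Sca-1Neg, adjusted p = 6.17e-04). Fancl, the ligase that attaches ubiquitin to the clamp, had 436, 566 and 491 in UGE and from 166 to 274 in adult cells (1.31 ± 0.22, adjusted p = 7.05e-04). Fancm, which anchors the complex at the crosslink, had 116, 133 and 129.8 in UGE and from 25.3 to 61.5 in adult cells (1.24 ± 0.24, adjusted p = 0.00209). These 3 genes were called against each adult group with no overlap of arrays. For Fancm this held for the brightest probe set alone. Its 2 other probe sets lay near the floor, with means of 24.5 and 25.4 in UGE and 21.8 and 23.8 in Sca-1Neg cells, and were not called (adjusted p = 0.735 and 0.964), and the mean of its probe sets was not called against any adult group.

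The core subunits Fanca, Fancc and Fancg and the clamp partner Fancd2 were not called in UGE against any adult group by their brightest probe sets. Against Sca-1Neg their log2 differences were -0.55, -0.23, 0.61 and -0.17, with standard errors from 0.21 to 0.46. Dimmer probe sets of Fanca, Fancc and Fancd2 gave other outcomes. The brightest one of Fancd2 read 75.4, 64.1 and 72.7 in UGE and from 66.5 to 92.8 in Sca-1Neg cells, so the groups overlapped. Another read from 57.0 to 69.3 and from 21.3 to 41.0 in these groups and was called higher in UGE (1.10, adjusted p = 0.0139). A second probe set of Fanca was lower in UGE than in Sca-1Neg (-1.58, adjusted p = 0.0484) and Sca-1Lo cells (-2.04, adjusted p = 0.0171). One of Fancc, with a mean of 55.3 in UGE, 114.9 in Sca-1Hi and 112.8 in Sca-1Lo cells, was lower in UGE than in both (-1.07, adjusted p = 0.0264, and -1.05, adjusted p = 0.0237).

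In mismatch repair, Msh6, the subunit that recognizes single mispaired bases, read 1064, 1649 and 1522 in UGE and from 224 to 456 in adult cells. Its difference from Sca-1Neg was 2.10 ± 0.28 (adjusted p = 1.01e-04), and no adult array reached the UGE range. Pms2, which nicks the strand to be corrected, was not called (0.29 ± 0.41, adjusted p = 0.632) by its brightest probe set. A dimmer one, at 109 to 187 in UGE and 30.1 to 115 in Sca-1Neg cells, was called (1.30, adjusted p = 0.0298).

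Of the damage kinases, Chek1 differed most. It read 844.5, 882 and 929.7 in UGE. Signals were 212, 170.2 and 238 in Sca-1Hi, 256, 130.3, 186 and 249.7 in Sca-1Lo, and 138, 93.3, 119 and 69.0 in Sca-1Neg cells. The UGE arrays stood above all others, and the Sca-1Hi arrays above all Sca-1Neg arrays. The difference between UGE and Sca-1Neg was 3.13 ± 0.30 (adjusted p = 6.95e-06). Chek2, the checkpoint kinase of the Atm branch, was not called (0.35 ± 0.23, adjusted p = 0.27), with 252 to 366 in UGE and 177 to 292 in adult cells.

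Upstream, Atr was called at 1.15 ± 0.40 (adjusted p = 0.0459) and Atm was not, at 0.71 ± 0.33 (adjusted p = 0.131). A second probe set of Atm was called at 1.21 (adjusted p = 0.0288). In the complex that binds broken ends, Rad50 was called (0.96 ± 0.30, adjusted p = 0.0315) and Nbn was not (0.40 ± 0.38, adjusted p = 0.464). Of the mediators that gather on damaged chromatin, Mdc1 read 329, 367 and 357 in UGE and from 118.5 to 197.5 in adult cells (1.27 ± 0.23, adjusted p = 0.0014). Trp53bp1, which steers breaks away from resection, was the brightest of the 35 genes, with 4178, 5497 and 5173 in UGE and 1846, 1220, 2697 and 2359 in Sca-1Neg cells (1.34 ± 0.35, adjusted p = 0.0125). The call of Rad50 was lost when Sca-1Neg replicate 1, Sca-1Neg replicate 2, UGE replicate 2 or UGE replicate 3 was left out, that of Atr also without Sca-1Hi replicate 2 or 3 or Sca-1Lo replicate 1 or 4, and that of Trp53bp1 without UGE replicate 2.

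Ung, the glycosylase that removes uracil from DNA, read 881, 1052 and 1086 in UGE and from 114 to 262 in adult cells (2.67 ± 0.30 against Sca-1Neg, adjusted p = 2.63e-05). Parp1, the sensor of single-strand breaks, read 1558, 1550 and 1618 in UGE and from 365 to 696 in adult cells (1.71 ± 0.27, adjusted p = 4.83e-04), and its 3 other probe sets were called as well. Neil3, a glycosylase of oxidized bases, was 1.89-fold higher in UGE than in Sca-1Neg cells (adjusted p = 0.0112) and was not called against Sca-1Hi (0.37 ± 0.25) or Sca-1Lo (0.34 ± 0.24). The call was lost without Sca-1Neg replicate 4, with 16 added before log2, when arrays were centred on the 75th percentile, with only the groups compared and with adult study numbers 3 to 5. A dimmer probe set of Neil3 was called against Sca-1Neg (2.01, adjusted p = 0.0189) and Sca-1Lo cells (1.82, adjusted p = 0.0345) and not against Sca-1Hi (1.59, adjusted p = 0.0713), and the mean of both was called against each adult group.

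In end joining, Xrcc5, which encodes Ku80, read 528, 792.5 and 680.5 in UGE and from 148 to 349 in adult cells (1.47 ± 0.29 against Sca-1Neg, adjusted p = 0.0019). Its partner Xrcc6, which encodes Ku70, was not called against Sca-1Neg (0.50 ± 0.29, adjusted p = 0.214) and was called against Sca-1Hi (1.10 ± 0.31, adjusted p = 0.017), though not without UGE replicate 2 or Sca-1Hi replicate 2. Lig4, which seals the ends, was called against each adult group, at 1.11 ± 0.33 against Sca-1Neg (adjusted p = 0.0246). The unmoderated test called neither Xrcc5 nor Lig4 against Sca-1Neg. Lig4 lost its call there by limma without UGE replicate 2, UGE replicate 3, Sca-1Neg replicate 1 or Sca-1Neg replicate 2. Within the adult study numbers 1 and 2 the difference of Lig4 was 1.62 from Sca-1Neg and 1.34 from Sca-1Lo cells, and within 3 to 5 it was 0.59 and 0.75, neither of them called (adjusted p = 0.179 and 0.104). Prkdc, the kinase that Ku recruits, was called against Sca-1Lo alone (1.19 ± 0.37, adjusted p = 0.0334, not called without UGE replicate 2 or 3 or Sca-1Lo replicate 1 or 2), and its differences from Sca-1Neg and Sca-1Hi were 0.75 and 1.01. Polq, a polymerase of a backup end-joining route, lay between 18.1 and 44.4 on the 14 arrays, close to the floor.

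The comparisons of UGE with Sca-1Hi and with Sca-1Lo cells share the 3 UGE arrays with the one just described. Against Sca-1Hi cells 19 of the 35 genes were higher and none lower, where 15.8% and 12.0% of all genes were. Against Sca-1Lo cells 20 were higher and none lower, where 13.4% and 12.2% of all genes were. Homologous recombination had 8 of 10 genes higher in either comparison. The member medians were 1.08 and 1.15, with all-gene medians of 0.00 and -0.04. Atr, Rad50, Trp53bp1 and Neil3 were called against Sca-1Neg and not against Sca-1Hi cells. The difference between UGE and Sca-1Hi was -0.01 ± 0.38 for Trp53bp1, whose Sca-1Hi signals of 3926, 5921 and 5272 spanned those of UGE. A dimmer probe set of Trp53bp1 read 301 to 360 in UGE and 204 to 233 in Sca-1Hi cells, without overlap. Another overlapped, at 1166 to 2143 in UGE and 712 to 1746 in Sca-1Hi cells. No probe set of Trp53bp1 was called between these groups.

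Among the adult populations the genes differed little. Sca-1Hi and Sca-1Neg cells differed in 4 of the 35 genes, 2 higher (6.11% of all genes) and 2 lower (5.19% of all genes), so the share of members called was close to that of all genes, and the median difference was 0.19 against 0.03 for all genes. Trp53bp1 was 2.55-fold higher in Sca-1Hi cells (1.35 ± 0.35, adjusted p = 0.0246), and a second of its probe sets was called too (1.04, adjusted p = 0.0151). Chek1 was 2.02-fold higher (1.01 ± 0.30, adjusted p = 0.0404), without a call by its other probe sets. Fanca, a core subunit of the Fanconi complex, was 2.34-fold lower. It read 135, 145 and 165 in Sca-1Hi, 251, 186, 152 and 134.5 in Sca-1Lo and 450.3, 278, 246 and 462.5 in Sca-1Neg cells (-1.23 ± 0.29, adjusted p = 0.0167). Sca-1Hi arrays lay below all Sca-1Neg arrays for Fanca, but its second probe set differed by 0.07 (adjusted p = 0.952). Fancm was 1.82-fold lower (-0.86 ± 0.24, adjusted p = 0.0347), with 27.2, 25.3 and 36.5 in Sca-1Hi and 55.3, 43.3, 61.5 and 54.9 in Sca-1Neg cells.

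These 4 calls rested on few arrays. Leaving out 1 array at a time gave 0 to 3 genes higher and 0 to 2 lower. Without Sca-1Hi replicate 2 none of the 4 was called, without Sca-1Hi replicate 1 or Sca-1Neg replicate 1 a single call was left (Trp53bp1 and Chek1, respectively), and without Sca-1Hi replicate 3 or Sca-1Neg replicate 2 the genes left were Fanca and Fancm. Chek1 was also lost without UGE replicate 2, UGE replicate 3 or Sca-1Neg replicate 4, and Fancm without UGE replicate 3, Sca-1Neg replicate 3 or Sca-1Neg replicate 4. The unmoderated test called none of the 35 genes, and it called 0.794% of all genes higher and 0.0408% lower. The mean of all probe sets of a gene called only Rad54l.

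Sca-1Lo and Sca-1Neg cells did not differ in any of the 35 genes by limma, where 1.68% of all genes were higher and 0.829% lower. At an unadjusted p under 0.05 there were 4 of 35 genes (Fanca, Fancd2, Chek1 and Neil3), where 14.6% of all genes passed. The unmoderated test also called none of them, and only 2 of all 17136 genes. The largest differences were those of Fanca (-0.97 ± 0.27, adjusted p = 0.0887) and Chek1 (0.97 ± 0.27, adjusted p = 0.0951). Chek1 was called without Sca-1Lo replicate 2, and Fanca without Sca-1Neg replicate 3. Sca-1Hi and Sca-1Lo cells likewise had no gene called by limma, where 0.0817% of all genes were higher and 0.0175% lower, and the unmoderated test called 0 of all 17136 genes. At an unadjusted p under 0.05 there were 2 of 35 (Fancd2 and Rad54b, the latter under the floor in both), where 8.01% of all genes passed.

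**Figure D3:**
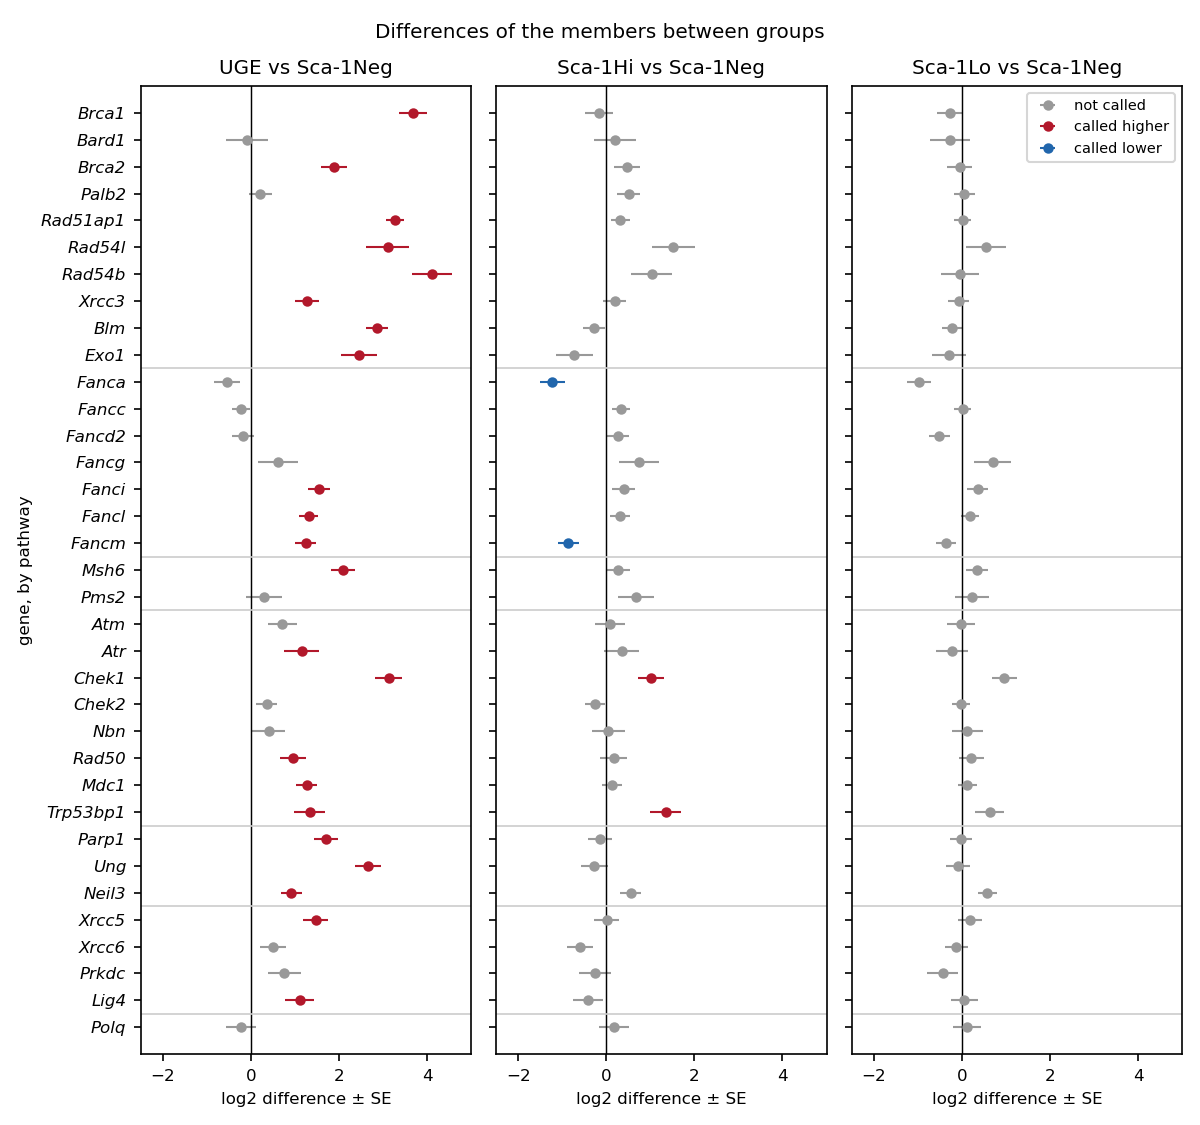
Log2 difference of each gene (rows, grouped by pathway) from Sca-1Neg cells in UGE, Sca-1Hi and Sca-1Lo cells. Bars are standard errors of the limma fit. In UGE 22 genes were called higher, in Sca-1Hi cells 2 higher and 2 lower, and in Sca-1Lo cells none. Rad54b, under the floor on all adult arrays, is drawn with its fitted difference and not as a bound.

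The adult arrays carry study numbers in the authors' supplementary table, 1 and 2 for 5 arrays and 3 to 5 for 6 arrays, and what the numbers stand for is not stated. In 5 genes every array of the higher numbers lay above every array of the lower numbers, in all 3 adult populations together. That is 5 of 35 genes, where 8.30% of all genes were so separated, and the reverse was seen for none of the 35 and 4.06% of all genes. The genes were Atm, Atr, Nbn, Rad50 and Prkdc. Atm, for example, read between 122.5 and 129 on arrays of low numbers and between 197 and 227 on arrays of high numbers, and Nbn between 147.5 and 265 and between 292.5 and 433. The arrays of the 3 Sca-1 gates overlapped for each of these 5 genes. Brca1, by contrast, read 54.2 to 76.8 and 39.6 to 80.3.

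The UGE comparison was repeated within these subsets. With the adult arrays of numbers 1 and 2 alone, 26 of the 35 genes were higher in UGE than in Sca-1Neg cells, where 27.9% of all genes were, and with those of numbers 3 to 5 alone, 18, where 10.8% of all genes were. The difference of Atm was 1.15 and 0.28 in these subsets, that of Nbn 0.99 and -0.19, that of Prkdc 1.35 and 0.16, that of Rad50 1.37 and 0.55, and that of Atr 1.55 and 0.75. These genes were picked for higher adult signals at numbers 3 to 5, and both subsets use the same UGE arrays. A smaller second difference thus follows from that choice. For Brca1 and Chek1, not picked so, the differences were 3.74 and 3.62, and 2.96 and 3.29. Other genes not picked so moved either way. Parp1 had 2.07 and 1.35 and Xrcc5 1.90 and 1.04, whereas Rad54l had 2.86 and 3.37. The median difference of all genes was 0.22 and -0.02, so a smaller second difference was not particular to the 5 genes. The subset of numbers 1 and 2 held a single Sca-1Hi array, replicate 1, so its Sca-1Hi values have no replicate. Trp53bp1, the first of the adult differences, was 1.39 and 1.15 higher in Sca-1Hi than in Sca-1Neg cells within the subsets. The values were 0.90 and 1.15 for Chek1, -1.39 and -1.12 for Fanca and -0.85 and -0.93 for Fancm. Each kept its direction, though the first value of each pair rests on that 1 Sca-1Hi array. Within the higher numbers only Trp53bp1 of these was called.

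**Figure D4:**
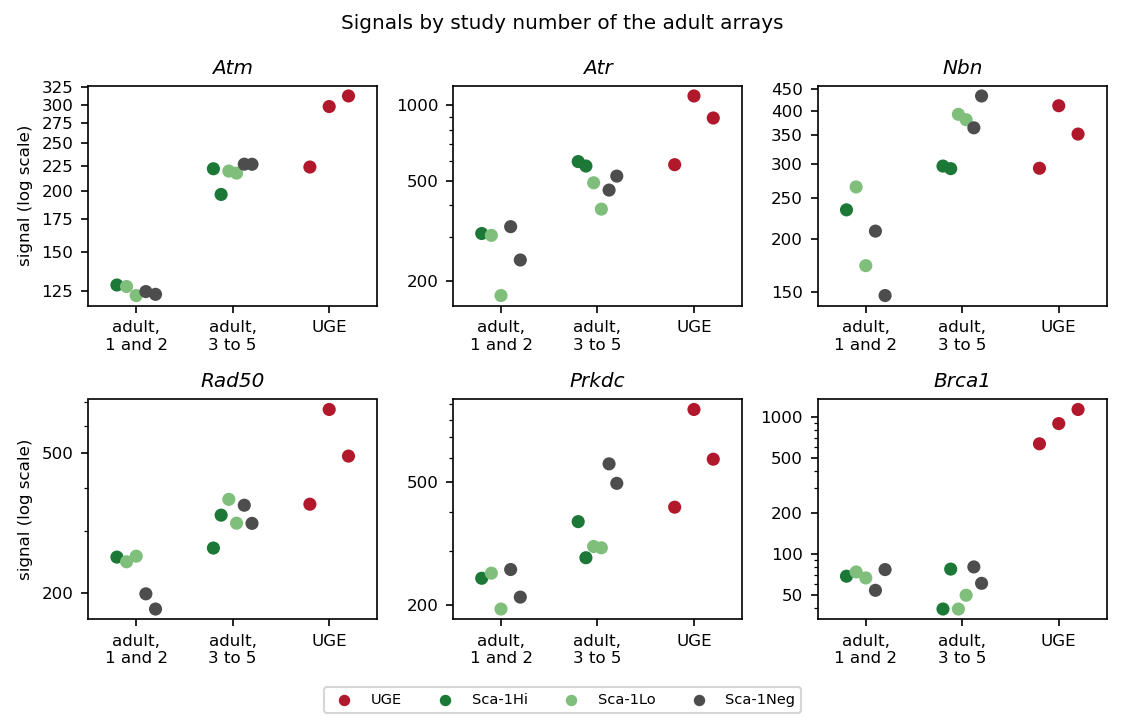
Signal (log axis) of 6 genes on the adult arrays of study numbers 1 and 2, on those of 3 to 5, and on the UGE arrays, coloured by population. Atm, Atr, Nbn, Rad50 and Prkdc are higher on every adult array of numbers 3 to 5 than on any of numbers 1 and 2, and Brca1 is not.

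Other genes of the same pathways were listed by function. In UGE against Sca-1Neg cells 8 of 25 further recombination genes were higher, among them the nuclease subunit Eme1 (at least 5.18-fold), the resolvase Gen1 (log2 difference 2.25), Rad51b (1.88) and Rpa2, which coats single strands (1.62). Of the further Fanconi genes 5 of 8 were higher, led by the crosslink sensor Uhrf1 (3.95), Fancb (2.83), the conjugating enzyme Ube2t (2.46) and Usp1, which removes ubiquitin from the clamp (1.91). Of the further checkpoint genes 11 of 20 were higher, led by Clspn, the adaptor that brings Chek1 to Atr (3.96), the fork protector Timeless (2.71), the histone H2ax (2.25) and the Atr activator Topbp1 (2.08). Of the further base excision genes 5 of 16 were higher, led by the ligase Lig1 (2.35) and the nuclease Apex1 (1.22), and of 3 further mismatch genes Pms1 was (1.99). Damage tolerance had 4 of 12, led by the ligase Rad18 (2.89).

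Nucleotide excision repair, the route that removes bulky lesions, had 0 of 16 genes called in UGE against Sca-1Neg cells by limma or the unmoderated test, where limma called 16.3% of all genes higher, and 1 at an unadjusted p under 0.05, where 42.0% of all genes passed. Against Sca-1Hi cells 3 of its 16 genes were higher, where 15.8% of all genes were. They were Rad23b (1.20), Ddb1 (1.09) and Ercc8 (0.82). Of 5 further end-joining genes none was called against Sca-1Neg by either test (1 at an unadjusted p under 0.05), and Paxx, a scaffold of that route, was lower in UGE than in Sca-1Hi cells (-1.07, adjusted p = 0.0049). Of p53 and its targets 5 of 16 were higher and none lower in UGE than in Sca-1Neg cells by limma. They were led by Zmat3 and Sesn2 (1.45) and included the cell cycle inhibitor Cdkn1a (1.34). The unmoderated test called 1 of the 16. Against Sca-1Lo cells, a different reference group, Zmat3 and Cdkn1a were higher in UGE, and Btg2 (-2.65) and Gadd45a (-1.71) were lower. The counts are of the genes of each list that were tested.

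The proliferation genes moved with the repair genes. In UGE against Sca-1Neg cells 18 of 19 genes of DNA replication and S phase were higher with a median log2 difference of 2.25, and 17 of 17 of mitosis with a median of 3.39. Their summed signal on an array was 26830 to 29510 in UGE and 6088 to 8739 in the adult groups for replication, and 19590 to 23530 and 997 to 2539 for mitosis. Mki67, which marks cycling cells, had a mean signal of 3363 ± 644 in the 3 UGE arrays (SD), against 270.2 ± 77.0 in the 4 of Sca-1Neg cells. What part the share of cycling cells had in the differences of the repair genes was not tested. In bulk samples more cells that express a gene and more RNA per cell cannot be told apart. In Sca-1Hi against Sca-1Neg cells 3 of 19 replication genes were higher (Cdc45, Mcm7 and Mcm6) and 0 of 17 mitosis genes were called by limma or the unmoderated test (1 at an unadjusted p under 0.05, where 26.0% of all genes passed).

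**Figure D5:**
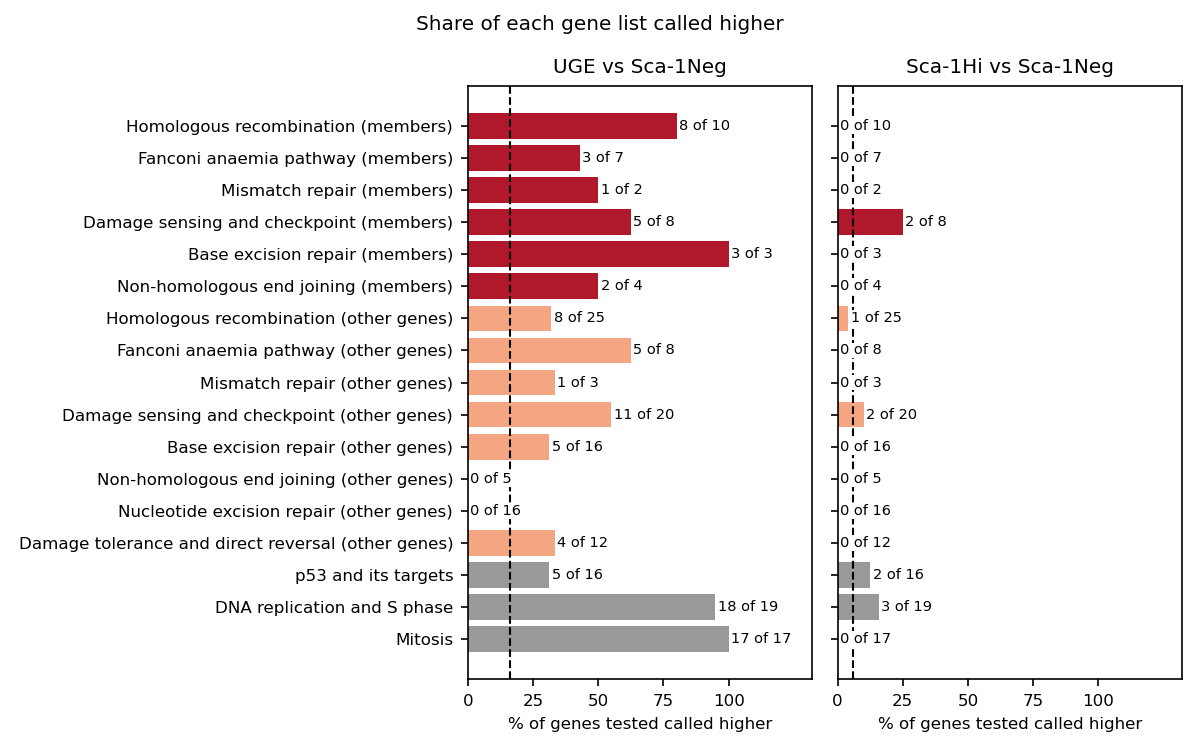
Share of the genes tested of each list called higher in UGE (left) and in Sca-1Hi cells (right) than in Sca-1Neg cells, with the counts. Dark red bars are the 35 genes, light bars other genes of the repair pathways, and grey bars the p53, replication and mitosis lists, and the dashed lines mark 16.3% and 6.11%, the shares of all genes. Polq, alone in its pathway, is not drawn. In UGE most lists pass the dashed line, whereas nucleotide excision repair and the other end-joining genes stay at 0.

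Markers of cell types differed between the same groups. Ptprc, which marks leukocytes, ranged from 113 to 2619 in Sca-1Neg, from 87.7 to 168 in Sca-1Lo, from 38.7 to 47.9 in UGE and from 2.92 to 14.6 in Sca-1Hi cells, and 12 of 21 leukocyte markers were lower in UGE and 15 of 21 in Sca-1Hi than in Sca-1Neg cells. The summed signal of these markers was 6893 to 59620 in Sca-1Neg, 2870 to 10750 in Sca-1Lo, 1523 to 3497 in Sca-1Hi and 1961 to 3011 in UGE. Smooth muscle markers were lower than in Sca-1Neg cells for 12 of 12 genes in UGE and 7 of 12 in Sca-1Hi cells, with sums of 35290 to 120100 in Sca-1Neg, 10880 to 32880 in Sca-1Hi and 1958 to 5049 in UGE. Endothelial markers were higher in Sca-1Hi (11 of 12) and Sca-1Lo cells (10 of 12) and lower in UGE (8 of 12), and Pecam1, which defines that type, was under 20 on all UGE and Sca-1Neg arrays and from 72.7 to 91.8 in Sca-1Hi cells. Fibroblast markers differed for 4 of 12 genes in UGE and 0 of 12 in Sca-1Hi or Sca-1Lo cells by limma (0 and 1 at an unadjusted p under 0.05), with sums of 11570 to 24270 in UGE and 12370 to 76630 in the adult groups. The basal markers Krt5 and Trp63 were present in every group, at a mean of 7241 and 3187 in UGE, 7947 and 1643 in Sca-1Hi and 916 and 399 in Sca-1Neg cells. Of 10 luminal and secretory markers, 3 were higher (Krt19, Cdh1 and Krt8) and 5 lower (Svs2, Pbsn, Spink1, Msmb and Tgm4) in UGE than in Sca-1Neg cells, and 2 were higher (Krt19 and Krt8) and 1 lower (Svs2) in Sca-1Hi cells. Krt8, of luminal cells, ranged from 2239 to 11140 over all arrays, and the secretory gene Pbsn was below 20 in UGE and 8701 or more on every adult array. The part of these cells in the results was not tested. The log2 ratio of the 3′ to the 5′ Gapdh control was 3.07 to 3.48 in Sca-1Hi, 1.98 to 3.22 in Sca-1Lo, 1.83 to 2.38 in UGE and 1.66 to 2.75 in Sca-1Neg cells. For the Actb control the ranges overlapped, at 1.59 to 2.77, 1.72 to 2.27, 1.54 to 2.09 and 1.17 to 2.11 in the same order. The part of these ratios was not tested either.

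Of the 35 genes, 18 had further probe sets, 38 in all that passed the filter. In UGE against Sca-1Neg cells 23 of the 38 gave the same call as the gene's own probe set, 11 were not called where it was, 4 were called where it was not (Fanca, lower, and Fancd2, Pms2 and Atm, higher), and none gave the opposite call. In Sca-1Hi against Sca-1Neg cells these counts were 25, 10 and 3 (1 each for Brca1, Rad54l and Atr), again with none opposite. The rise of Brca1, Rad51ap1, Rad54l, Chek1 and Parp1 in UGE was called by at least 2 probe sets of each.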

How the data were processed

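The authors took RNA of 10000 to 50000 sorted adult cells and of dissected UGE, which was not sorted and has no cell number given. They labelled 20 ng in 2 cycles (RNA integrity number over 7) and hybridized it to MOE430 2.0 arrays. Linear PLIER signal intensity values were deposited for 45101 probe sets. How arrays were scaled to each other is not given in the sources used here. Median signals ran from 64.3 to 81, and the number of arrays limits the precision. Probe sets were named from the platform annotation: 34958 had 1 gene, 932 several and 9211 none listed, and 64 controls were left out.

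The log2 signals of 41031 probe sets above 20 on at least 1 array were fitted in limma 3.58.1 (R 4.3.3) with 4 group means and no covariate. A call needed a Benjamini-Hochberg adjusted p under 0.05 over all probe sets and a change over 1.75-fold. The fit was tested on simulated data. A signal group at or below 20 was set to 20 and its fold given as a bound. Study numbers were found by matching the values of 1050 probe sets in a supplementary table to the arrays. Every gene of the list could be named, per-array values going by rule to called genes with the 4 largest differences of a pathway. Values per array or ranges of other genes of the list were added after their values were seen. Up to 4 called genes of each other list were named. The genes and lists were chosen with earlier results of these data known. Alternatives were other filters, a constant of 16, quantile scaling, the 75th percentile as centre, an unmoderated 2-group test (the methods' t-test, run on all probe sets without the preselection of transcripts and the SAM analysis of the methods, which were not repeated), no fold minimum, the compared groups alone, blocks, mean probe sets, study-number subsets and each array left out.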

Additional observations from a re-analysis of the deposited data

Results flagged for a closer look

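Single arrays stood apart from their group in 3 of the 70 gene and group combinations of 4 arrays that were tested, where chance gives about 3.5. Rad54l read 62.18 on Sca-1Lo replicate 1 and 47.7 to 49.5 on the other 3 arrays of that group. Msh6 read 326 on Sca-1Lo replicate 2, against 436 to 453.5. Polq read 18.14 on Sca-1Lo replicate 1, under the floor of 20, against 37.2 to 40.4. None of the 3 genes was called between Sca-1Lo and another adult group.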

How the results depend on the processing

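Over all alternatives, UGE against Sca-1Neg cells had 15 (the methods' t-test) to 26 genes higher (adult study numbers 1 and 2). UGE against Sca-1Lo had 16 to 22. UGE against Sca-1Hi had 16 to 20, without the subset of study numbers 1 and 2, which held a single Sca-1Hi array. Leaving out each array gave 18 to 22 against Sca-1Neg, 16 to 20 against Sca-1Hi and 17 to 20 against Sca-1Lo. The mean of a gene's probe sets called 1 gene lower in UGE than in Sca-1Neg cells (Fanca). The counts of Sca-1Hi against Sca-1Neg, 2 higher and 2 lower, moved most. They were 1 lower with 16 added before log2, 1 higher when centred on the 75th percentile and 0 and 0 by the methods' t-test. With only the groups compared they were 2 and 0, and with the mean of a gene's probe sets 1 and 0. Study numbers 3 to 5 gave 1 and 0, and each array left out gave 0 to 3 higher and 0 to 2 lower. No count is given for adult study numbers 1 and 2, which held a single Sca-1Hi array. In Sca-1Lo against Sca-1Neg cells the counts left-out arrays gave were 0 to 1 higher and 0 to 1 lower. The causes were not tested, beyond the fewer arrays that some alternatives use. Rad54l, not called in the main fit, was called higher in Sca-1Hi than in Sca-1Neg cells by several alternatives. They were quantile scaling, the compared groups alone, the mean of its probe sets and the fit without UGE replicate 1. A block of study numbers 1 and 2 against 3 to 5 also called it, with 3 genes higher and 2 lower. With the replicate block, Sca-1Hi against Sca-1Neg had 1 gene higher (Chek1 was lost) and UGE against Sca-1Neg 23. Of the same-numbered pairs of arrays 11 of 19 had a correlation of deviations over 0.1 (median 0.13, from -0.45 to 0.56), and of the other pairs 19 of 54 (median -0.08). Not every same-numbered pair passed 0.1, and the main fit did not pair the samples. The numbers here were the replicate numbers of the labels. They are not always the study numbers, since Sca-1Hi replicate 2 has study number 3. UGE arrays were also set against adult arrays. Neither this check nor the replicate block can therefore show whether gates were sorted from the same preparation. Centring on the 75th percentile moved the median of all genes in UGE against Sca-1Neg from 0.07 to -0.13. No difference that was called in the main fit changed sign in an alternative. Nbn, called only in UGE against Sca-1Neg with adult study numbers 1 and 2, was 0.99 there and -0.19 with 3 to 5. Signals near 20 (Bard1, Polq and adult Rad54b) give no order.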
